A study of Mus musculus with 3 samples.

Results

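The Hox genes are a family of homeobox transcription factor genes, and their levels were compared across the cell types of the mouse fetal ovary at E12.5. The members were all genes of the count tables whose symbol is Hox followed by a, b, c or d and a number only, which gave 38 of 18738 listed genes. The samples were 3 cryopreserved lots of fetal ovarian somatic cells (FOSCs), numbered 26, 29 and 30, sequenced with 10X Genomics 3′ v3 chemistry straight after thaw. Each lot was a pool of ovaries, trimmed of the mesonephros, from the CD1 embryos of 10 time-mated females, and was labelled with SSEA1 and CD31 antibodies on magnetic beads, of which only the flow-through was frozen, in order to deplete germ cells. The labels name no transgene or treatment, and the 3 lots form 1 condition, so lots served as replicates (n = 3 lots) and were not tested against each other.

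Mammalian Hox genes lie in 4 clusters, HoxA to HoxD, and genes with the same number in different clusters (paralogs) descend from a common ancestor. Along a cluster, low numbers are known to be expressed early and anteriorly and high numbers late and posteriorly, so that the set of Hox genes in a cell of the trunk mesoderm records its level on the body axis. The proteins bind DNA together with TALE homeodomain cofactors of the PBX, MEIS and PREP families, while Polycomb proteins keep silent parts of the clusters shut. In the reproductive tract, Hoxa9, Hoxa10, Hoxa11 and Hoxa13 are best known for dividing the Müllerian duct into oviduct, uterus, cervix and vagina.

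The sequences before 4 transcription starts are shown, chosen because these genes stand for 4 patterns among the cell types: Hoxa5 for stromal-like, Hoxd10 for epithelial-like, Hoxb8 for endothelial-like and Hoxa13 for germ-like cells. Hoxd10 sets epithelial-like cells apart mainly from pre-granulosa-like cells. Its difference from stromal-like cells is small (log2 fold change −0.50, stromal-like against epithelial-like), and that call was lost with any lot left out. Hoxb8 is highest in endothelial-like cells only among the named classes. Its pooled level there, 13.8 CPM, is below the 52.6 to 98.2 CPM of the 4 small unnamed groups described below. Each sequence is the 250 bases upstream of a RefSeq start on GRCm38.p6, read 5′ to 3′ on the gene's strand, with CpG dinucleotides in capitals.
Hoxa5: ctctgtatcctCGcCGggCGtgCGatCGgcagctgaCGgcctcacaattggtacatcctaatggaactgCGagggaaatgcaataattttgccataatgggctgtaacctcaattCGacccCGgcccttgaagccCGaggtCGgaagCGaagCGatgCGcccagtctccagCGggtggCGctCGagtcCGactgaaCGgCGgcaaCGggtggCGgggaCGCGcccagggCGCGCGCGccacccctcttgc
Hoxd10: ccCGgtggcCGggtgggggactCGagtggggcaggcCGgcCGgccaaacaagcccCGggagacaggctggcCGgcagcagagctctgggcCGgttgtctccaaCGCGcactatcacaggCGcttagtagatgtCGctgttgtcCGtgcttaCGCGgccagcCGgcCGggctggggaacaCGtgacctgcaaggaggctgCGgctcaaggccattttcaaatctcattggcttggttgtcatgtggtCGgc
Hoxb8: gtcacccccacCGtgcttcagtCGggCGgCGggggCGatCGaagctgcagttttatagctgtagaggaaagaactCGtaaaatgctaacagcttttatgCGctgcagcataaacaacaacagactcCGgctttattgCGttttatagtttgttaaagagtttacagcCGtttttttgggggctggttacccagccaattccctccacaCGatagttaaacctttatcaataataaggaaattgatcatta
Hoxa13: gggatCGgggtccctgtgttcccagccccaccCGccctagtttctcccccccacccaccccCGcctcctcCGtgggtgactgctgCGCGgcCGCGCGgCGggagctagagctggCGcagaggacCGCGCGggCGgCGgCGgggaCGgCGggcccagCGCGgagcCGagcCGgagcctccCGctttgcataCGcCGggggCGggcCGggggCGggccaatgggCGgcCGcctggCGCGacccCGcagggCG
The Hoxa5 window (chr6:52204588-52204837, minus strand) lies within the span of the long Hoxa3 gene but in none of its annotated exons. It holds 28 CpG, as many as or more than all but a small part of windows (7.61% of 32851 windows of all genes hold as many). The Hoxd10 window (chr2:74691641-74691890, plus strand) holds 20 CpG, reached by 17.95% of windows, and overlaps no annotated exon. The Hoxb8 window (chr11:96281655-96281904, plus strand) holds 12, reached by 33.5%, and the Hoxa13 window (chr6:52260881-52261130, minus strand) holds 35, reached by 2.97%, and both lie between genes. RefSeq gave 24 such windows for 22 of the 38 Hox genes, with 2 to 35 CpG each, against a median of 6 over all windows. The 300-base windows that run 50 bases past the start were searched on both strands for 3 binding words. The PBX-HOX word TGATTNAT was found in 2 Hox windows (Hoxa2 and Hoxd11) and in 3.22% of all windows, the MEIS word TGACAG in 2 (Hoxa2 and Hoxa3) and in 19.2%, and the word TTTATNG of paralogs 9 to 13 in 2 (Hoxb8 and Hoxd4) and in 10.9%.

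All 38 genes were found in the GRCm38 annotation. HoxA spans chr6:52155590-52260880 on the minus strand with 11 members. HoxB spans chr11:96194316-96368256 with 10, HoxC chr15:102921103-103036852 with 8 and HoxD chr2:74668310-74765142 with 9, each on the plus strand. Reads of 4 members could be split with another listed gene, since Hoxc5 and Hoxc10 share 166 exon bases, Hoxd3 shares 2613 of its 4191 and Hoxd4 shares 1542 of its 2948. Values of these 4 genes are uncertain for that reason.

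After the cell filters the lots held 9711, 8553 and 10707 cells with medians of 11126, 8949 and 11595 unique molecular identifiers (UMIs) each. Cells were clustered with the Hox genes held out of the variable genes, and the 21 clusters were compared with marker lists. Clusters 12, 14, 15 and 18 (2184 cells) stayed unnamed, and the others gave 12117 pre-granulosa-like, 6038 epithelial-like, 6211 stromal-like, 1472 germ-like, 349 endothelial-like, 135 macrophage-like, 78 red-blood-cell-like and 387 Sertoli-like cells. The defining markers followed the names: Dazl, an RNA-binding protein of germ cells, reached 980.5 CPM in the germ-like class but no more than 4.17 CPM in the 3 large somatic classes, where CPM is the share of a gene among the UMIs of a class scaled to a common total. The endothelial cadherin Cdh5 reached 445 CPM in the endothelial-like class but no more than 1.43 CPM in the large classes. Doublets were called for 0.933% of pre-granulosa-like, 8.71% of epithelial-like, 8.90% of stromal-like, 13.5% of germ-like and 16.6% of endothelial-like cells. Cells with a UMI of a Y-linked gene made up 3.67%, 10.7% and 0.869% of lots 26, 29 and 30.

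Taken as a sum, Hox transcripts were most abundant in epithelial-like and stromal-like cells and far less abundant in pre-granulosa cells, the supporting cells that enclose oocytes. The summed level of the 38 genes was 573, 596 and 540 CPM in epithelial-like cells of lots 26, 29 and 30 (570 ± 27.7, SD) and 574, 617 and 506 CPM in stromal-like cells (566 ± 55.7). These ranges overlapped, and no order was read from them. The sum was 332, 251 and 310 CPM in endothelial-like cells (298 ± 42.2) and 176, 169 and 159 CPM in pre-granulosa-like cells (168 ± 8.25), and these lots overlapped neither each other nor the higher pair of classes. Macrophage-like cells gave 123 ± 35.6 CPM and germ-like cells 58.6 ± 15.8 CPM. Red-blood-cell-like cells served as a rough reference for free RNA, although erythroid cells can express some Hox genes themselves. They held 34 Hox UMIs in all, 44.3 ± 32.6 CPM, with no UMI for 29 of the 38 genes. The germ-like sums (70.1, 40.6 and 65.0 CPM) lay inside the red-blood-cell-like range of 7.96 to 71.0 CPM. Lot by lot, the red-blood-cell-like sums were 54.1, 7.96 and 71.0 CPM, so germ-like cells were above them in lots 26 and 29 and below in lot 30.

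At least 1 Hox UMI was seen in 98.6% of epithelial-like, 95.1% of stromal-like, 92.8% of endothelial-like, 72.6% of pre-granulosa-like and 52.4% of germ-like cells, against 20.5% of red-blood-cell-like cells (median depths 13456.5, 9218, 14820, 10154, 21193 and 9483 UMIs). With every cell thinned to 4000 UMIs, these shares were 84.4%, 81.5%, 66.5%, 44.6%, 17.7% and 9.32%. At that depth an average of 1.84 ± 0.0743 different Hox genes was seen per epithelial-like cell, 1.89 ± 0.115 per stromal-like cell, 1.12 ± 0.144 per endothelial-like cell and 0.598 ± 0.0274 per pre-granulosa-like cell (SD over 3 lots).

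**Figure D1:**
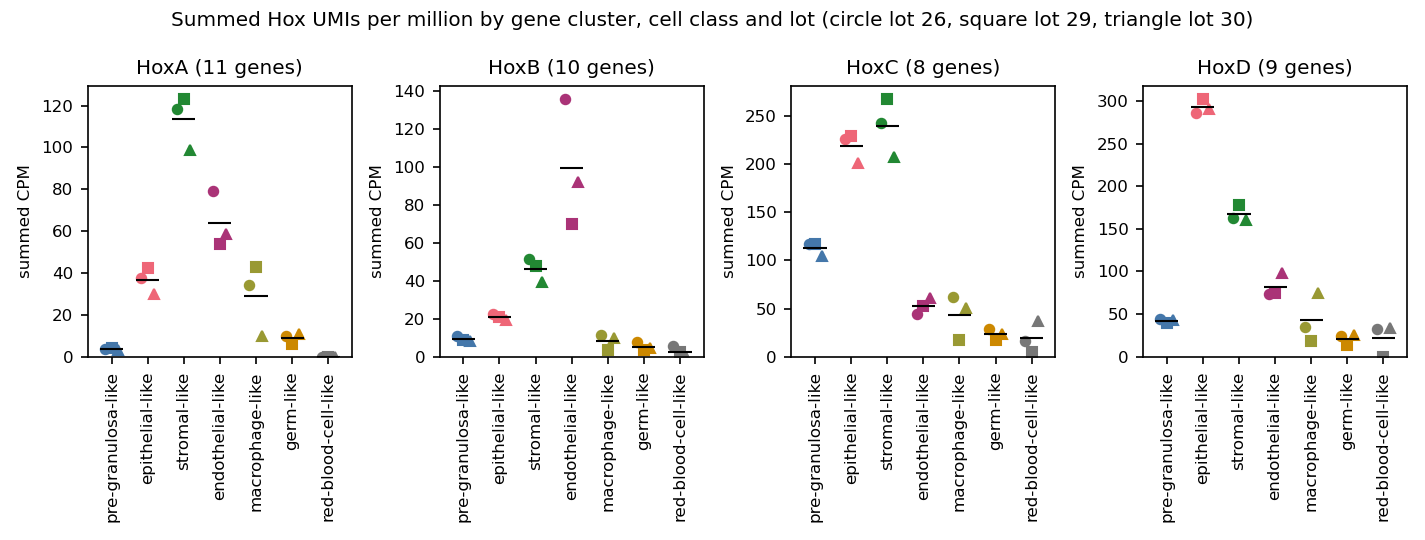
Summed level of each Hox gene cluster (CPM, linear axis from 0) in 7 cell classes, with a symbol per lot and a line at the mean of 3 lots. HoxA is highest in stromal-like cells (114 CPM), HoxB in endothelial-like cells (99.2 CPM) and HoxD in epithelial-like cells (293 CPM), while HoxC is close in stromal-like and epithelial-like cells (239 and 219 CPM).

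The 4 gene clusters were divided differently among the cell types. HoxA was the cluster with the steepest steps, at 3.70 ± 0.308 CPM in pre-granulosa-like, 36.7 ± 6.41 CPM in epithelial-like and 114 ± 12.9 CPM in stromal-like cells. Within a lot, the HoxA sum of stromal-like cells was 30.6 ± 1.18 times that of pre-granulosa-like cells and 3.12 ± 0.210 times that of epithelial-like cells. HoxD had another order, with 42.1 ± 2.15, 293 ± 8.30 and 167 ± 9.41 CPM in the same classes, so that stromal-like cells held 0.570 ± 0.0174 of the epithelial-like sum. HoxC differed least, at 113 ± 6.99, 219 ± 15.8 and 239 ± 30.3 CPM, with a stromal-like to epithelial-like ratio of 1.09 ± 0.0694. HoxB was low in these classes (9.18 ± 1.37, 20.9 ± 1.70 and 46.0 ± 6.30 CPM). Among the named classes it was highest in endothelial-like cells, at 99.2 ± 33.5 CPM, but small unnamed groups described below held more.

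The makeup of the Hox transcripts differed accordingly. HoxC genes gave 67.3% of the Hox UMIs of pre-granulosa-like cells, HoxD genes 51.5% of those of epithelial-like cells and HoxB genes 32.8% of those of endothelial-like cells, while stromal-like cells took 42.2% from HoxC, 29.6% from HoxD and most of the rest from HoxA (means over 3 lots). Posterior paralogs, numbers 9 to 13, made up 51.8% of the Hox UMIs in epithelial-like, 40.5% in stromal-like and 32.7% in pre-granulosa-like cells. Over all kept cells, HoxC gave 44.0% of Hox UMIs, HoxD 38.7%, HoxA 10.4% and HoxB 6.90%.

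**Figure D2:**
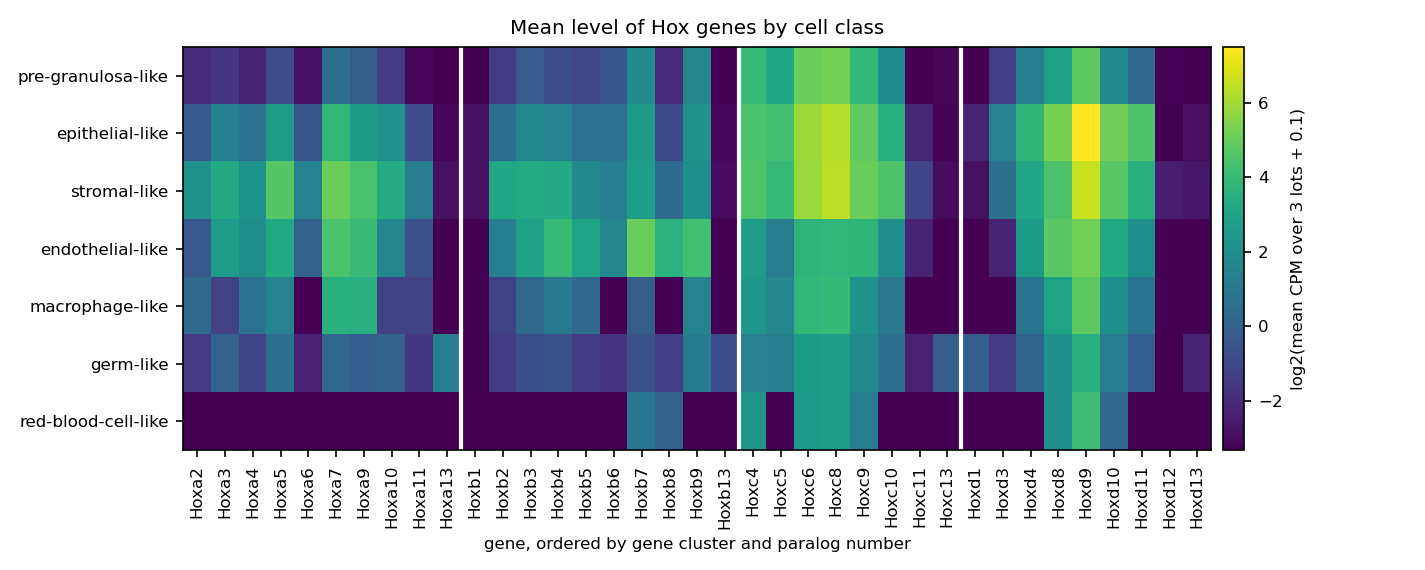
Mean level of Hox genes, as log2(mean CPM over 3 lots + 0.1), in 7 cell classes, with white lines between gene clusters. Colours are to be compared down a column, since 3′ UMI counts of different genes are captured differently. No gene is highest in pre-granulosa-like cells, and Hoxa13 is highest in germ-like cells.

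Over the 7 classes drawn, which leave out Sertoli-like cells, 18 members had their highest class mean in stromal-like, 9 in epithelial-like, 6 in endothelial-like, 5 in germ-like and 0 in pre-granulosa-like cells. In HoxA 10 of 11 were highest in stromal-like cells, in HoxD 6 of 9 in epithelial-like cells and in HoxB 6 of 10 in endothelial-like cells. One of these, Hoxb9, was higher still in Sertoli-like cells (27.2 ± 19.4 against 18.8 ± 10.8 CPM), with overlapping lots. A level of 20 CPM or more in some of the 7 classes was reached by 13 members, of which 10 were highest in the same class in all 3 lots. The first and the second class overlapped in range for Hoxa9, Hoxc4, Hoxc6 and Hoxc8. No such counts were made over all genes, so these describe the members only. Members that were never abundant include Hoxb1, Hoxc11, Hoxd12 and Hoxd13, whose means were at most 0.352 CPM in each of the 3 large classes.

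The first comparison asked how stromal-like cells differ from pre-granulosa-like cells. The UMIs of each class were added up within a lot, and these sums entered edgeR's quasi-likelihood test, adjusted by Benjamini and Hochberg's method over 14435 genes, at a threshold of 0.05. Of the 38 members, 30 passed the filter on low counts. In stromal-like cells 28 of these 30 were higher, 0 lower, and 2 (Hoxa13 and Hoxb9) were not past the threshold. Over all genes tested, 23.2% were called higher and 49.7% in either direction. Of the 28, Hoxa2, Hoxa6 and Hoxa11 passed the filter on low counts through the stromal-like sums. Their calls were set by that filter and are given as a description. Without called doublets they were at 4.95, 2.89 and 2.47 CPM in stromal-like and at 0.704, 0.627 and 0.502 CPM in epithelial-like cells. The median log2 fold change was 2.82 over the 30 members and −0.03 over all genes.

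HoxA genes differed most. Hoxa5, a gene of the cervical and upper trunk level that is known from lung and skeletal patterning, was at 26.3, 24.6 and 23.1 CPM in stromal-like cells of lots 26, 29 and 30 and at 0.487, 0.574 and 0.440 CPM in pre-granulosa-like cells. Every stromal-like value lay far above every pre-granulosa-like value. The log2 fold change was 5.50 ± 0.21 (SE; edgeR, adjusted p = 6.22e-15). Hoxa9, whose product is also known as an oncogene in blood cells, was at 20.3, 24.0 and 17.6 CPM against 0.643, 1.01 and 0.788 CPM, again with no overlap (4.54 ± 0.23, edgeR, adjusted p = 2.96e-13). Hoxa7 was at 35.3, 38.6 and 27.7 CPM against 1.37, 1.76 and 1.34 CPM (4.39 ± 0.28, edgeR, adjusted p = 1.79e-11). The HoxA genes known from the reproductive tract moved in the same direction at lower levels, with Hoxa10 at 9.91 ± 1.52 against 0.279 ± 0.235 CPM and Hoxa11 at 2.20 ± 0.917 against 0.0113 ± 0.0195 CPM, the latter a single UMI.

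HoxB genes spanned a wide range of differences and HoxC genes a narrow one. Hoxb2 had a log2 fold change of 4.98 and Hoxb4 of 4.08, but Hoxb7 of 0.74, and Hoxb9, with 0.30, did not pass. All 6 HoxC members tested were higher, with log2 fold changes from 0.36 for Hoxc4 to 2.46 for Hoxc10. Hoxc8, a gene of the lower thoracic level, was at 89.3, 96.6 and 71.0 CPM in stromal-like and at 36.9, 39.2 and 34.7 CPM in pre-granulosa-like cells, without overlap (1.08 ± 0.15). Hoxc4 differed little, at 23.6, 24.3 and 20.8 CPM against 16.2, 15.7 and 16.7 CPM, although the ranges were apart. The calls for Hoxb7 and Hoxc4 were lost without lot 26, and those for Hoxb7, Hoxc4 and Hoxc5 without cluster 11 of the stromal-like cells.

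Epithelial-like cells were named from markers of the ovarian surface such as Upk3b and Krt19, and the second comparison set them against pre-granulosa-like cells. Here 27 of 30 members were higher, 0 lower and 3 not past the threshold (Hoxa13, Hoxb8 and Hoxb9). Over all genes tested, 20.2% were called higher and 45% in either direction, and the median log2 fold change was 2.30 over the members against −0.05 over all genes. HoxA and HoxD genes had the larger differences, with median log2 fold changes of 3.29 and 2.81, and the abundant ones were HoxD genes. Hoxd9, a gene of the lumbosacral level and of the limb bud, was at 169, 186 and 187 CPM in epithelial-like and at 28.6, 26.4 and 28.0 CPM in pre-granulosa-like cells. The epithelial-like values were all higher, with a log2 fold change of 2.64 ± 0.21 (edgeR, adjusted p = 4.00e-10). Hoxd10, which patterns the lumbar motor neurons and the limb, was at 37.1, 36.5 and 33.6 CPM against 3.48, 2.94 and 4.00 CPM (3.28 ± 0.18, edgeR, adjusted p = 6.36e-13). Hoxd11, a gene required in the kidney and forearm together with Hoxa11, was at 27.7, 20.7 and 18.9 CPM against 1.22, 1.11 and 1.12 CPM (4.21 ± 0.24, edgeR, adjusted p = 5.52e-12). Neither gene's ranges overlapped. From Hoxd8 to Hoxd11 the log2 fold change was 2.38, 2.64, 3.28 and 4.21, while Hoxd3 and Hoxd4, nearer the other end of the cluster, had 2.99 and 2.41.

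Hoxb7 lost its call in this comparison with any of the lots left out, and Hoxc4 without lot 26, without lot 30 or without called doublets. Both lost it without the cycling clusters. With the lot as a replicate block, in which each sum is compared within its own lot, Hoxb8 and Hoxb9 passed as well, so that 29 of 30 members were higher. Calls over all genes rose too, from 6500 to 8940 of 14435.

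**Figure D3:**
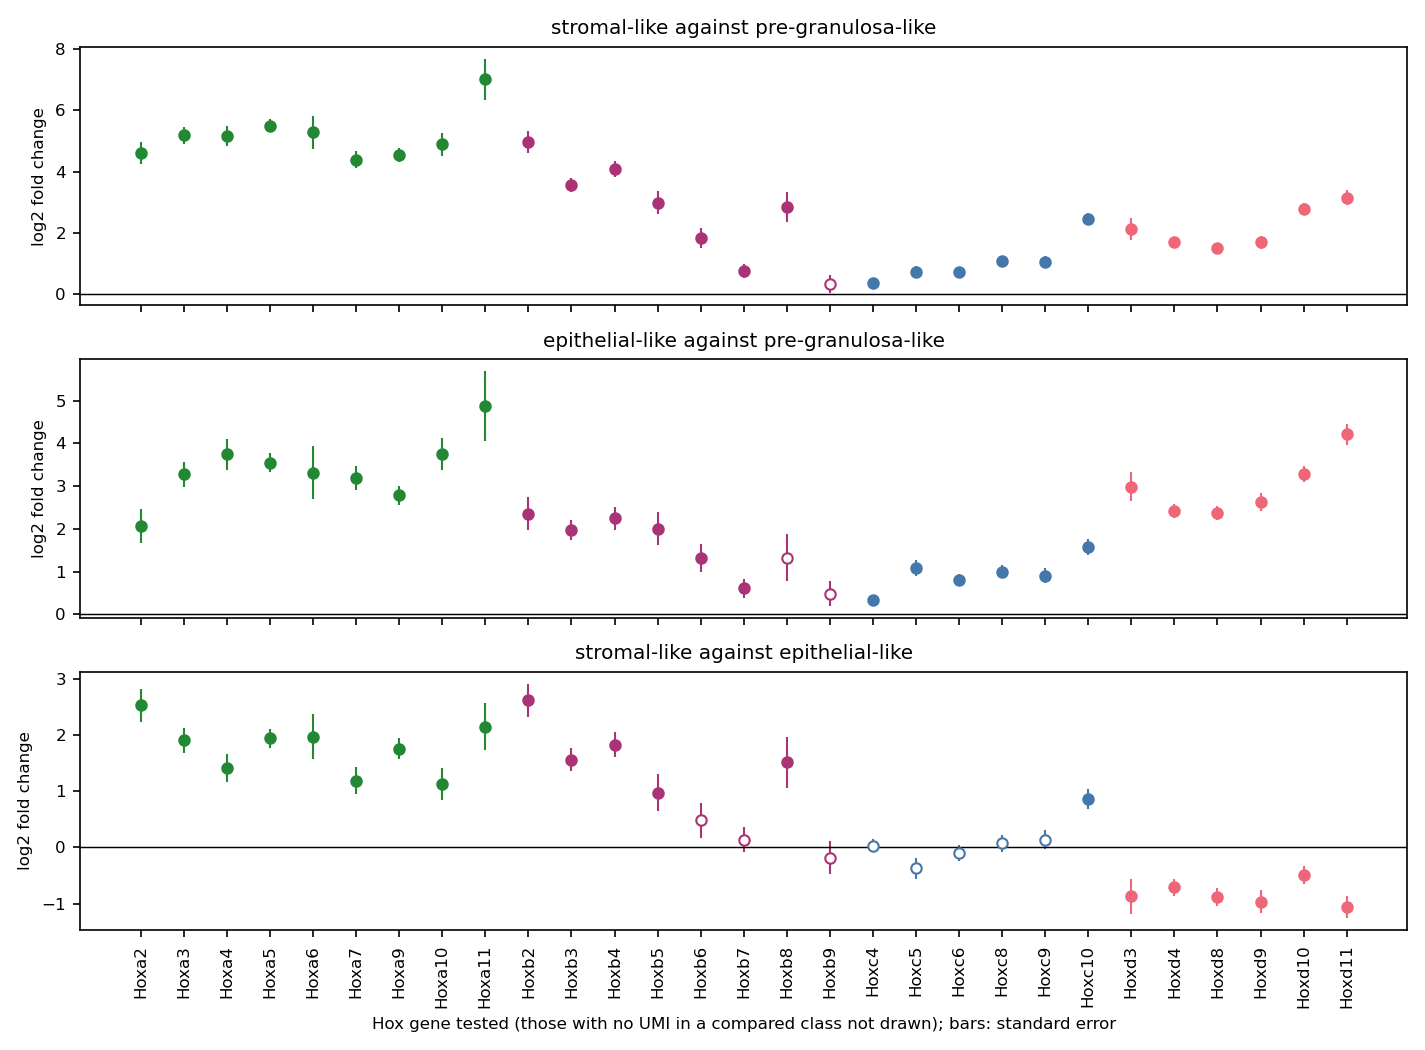
Log2 fold change (points) with its standard error (bars) from edgeR for the 29 Hox genes tested that have UMIs in all 3 large classes, ordered by gene cluster and number and coloured by cluster. Filled points passed an adjusted p of 0.05. In the upper and middle panels all points lie above 0, and in the lower panel HoxA points lie above 0 (9 called) and HoxD points below 0 (6 called).

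The third comparison, stromal-like against epithelial-like cells, separated the gene clusters at the level of whole classes. Of 30 members, 15 were higher in stromal-like cells, 6 were lower and 9 were not past the threshold, where 17% of all genes tested were called higher, 14.7% lower and 31.7% in either direction. All 9 called HoxA genes were higher (9 of 10 tested), as were 5 of 8 HoxB genes, 1 of 6 HoxC genes (Hoxc10) and 0 of 6 HoxD genes. All 6 HoxD genes were lower. The median log2 fold change was 1.83 for HoxA and −0.88 for HoxD, against −0.003 over all genes. The HoxA calls include Hoxa2, Hoxa6 and Hoxa11, which passed the filter through the stromal-like sums and are given as a description.

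Hoxa5 was at 26.3, 24.6 and 23.1 CPM in stromal-like and at 5.84, 6.97 and 5.53 CPM in epithelial-like cells, with no overlap and a log2 fold change of 1.95 ± 0.17 (edgeR, adjusted p = 5.51e-09). Hoxa9 followed with 1.76 ± 0.19 (edgeR, adjusted p = 1.58e-07), from 6.06, 6.72 and 4.72 CPM in epithelial-like cells. Hoxa7 had 1.19 ± 0.23 (edgeR, adjusted p = 0.000337), from 13.9, 18.2 and 10.4 CPM. On the other side, Hoxd9 was at 91.8, 103 and 96.2 CPM in stromal-like cells against 169, 186 and 187 CPM in epithelial-like cells, which is a log2 fold change of −0.96 ± 0.20 (edgeR, adjusted p = 0.000482). Hoxd11 had −1.06 ± 0.20 (edgeR, adjusted p = 0.000269), from 11.3 ± 1.24 CPM in stromal-like cells, and Hoxd8 −0.89 ± 0.16 (edgeR, adjusted p = 0.000102), from 20.2, 25.8 and 19.8 against 35.6, 42.9 and 37.1 CPM. The lots of the 2 classes did not overlap for these 6 genes. Hoxc4, Hoxc5, Hoxc6, Hoxc8 and Hoxc9 were not past the threshold, with log2 fold changes between −0.37 and 0.14. At a clustering resolution of 0.4, however, Hoxc4, Hoxc8, Hoxc9 and Hoxb6 were called higher and Hoxd3 lost its call, which gave 19 higher and 5 lower. Calls over all genes in this comparison were 5176 of 14458 at that resolution and 4573 of 14435 in the main result. Hoxc10 was at 19.6, 24.6 and 22.6 CPM in stromal-like and 11.9, 11.7 and 11.2 CPM in epithelial-like cells. Calls for Hoxd3, Hoxd10 and Hoxb5 were lost with any of the lots left out, and those for Hoxd3 and Hoxd10 also with another scaling of the libraries (RLE), so that 4 HoxD genes were then called lower. Hoxb8 lost its call without lot 26, without lot 29 or without cluster 11, and Hoxa10 without lot 30. Without cluster 13 of the stromal-like cells, Hoxb5, Hoxd3 and Hoxd10 were not called, and without cluster 11 neither were Hoxb5 and Hoxd10.

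Endothelial-like cells, which like all others came from the flow-through of the SSEA1 and CD31 beads, had a Hox profile unlike that of the 3 large classes. Set against the mean (on the log scale) of the 3 large classes, 12 of 30 members were higher, 8 lower and 10 not past the threshold. Over all genes tested, 17.2% were called higher, 24.3% lower and 41.5% in either direction. The 12 higher members were 6 of 8 HoxB genes (Hoxb3, Hoxb4, Hoxb5, Hoxb7, Hoxb8 and Hoxb9), 5 of 10 HoxA genes (Hoxa3, Hoxa4, Hoxa5, Hoxa7 and Hoxa9) and Hoxd8. The 8 lower ones were all 6 HoxC genes tested and Hoxd9 and Hoxd10. A call against this mean does not place a gene above or below each large class. The 5 called HoxA genes and Hoxb3 had higher means in stromal-like cells, and Hoxd8 was higher in epithelial-like cells in every lot. Within a lot, the HoxA sum was 0.566 ± 0.12 times that of stromal-like cells and 1.78 ± 0.451 times that of epithelial-like cells. Likewise, Hoxd9 and Hoxd10 had lower means in pre-granulosa-like cells. Hoxb7, which is known to be active in the ducts of the developing kidney, measured 41.3, 31.0 and 24.3 CPM in endothelial-like cells of lots 26, 29 and 30. It was at 6.31 ± 0.760 CPM in stromal-like, 5.13, 6.84 and 4.46 CPM in epithelial-like and 3.15, 4.32 and 2.86 CPM in pre-granulosa-like cells. Endothelial-like values lay above those of the 3 large classes, and the log2 fold change was 2.71 ± 0.20 (edgeR, adjusted p = 1.19e-10).

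Hoxb8, below 20 CPM, was at 19.3, 5.82 and 10.7 CPM in endothelial-like cells, against at most 1.66 CPM in any lot of the large classes. Hoxa9 was at 20.7, 13.6 and 15.7 CPM and Hoxa7 at 25.3, 21.3 and 18.6 CPM, with log2 fold changes of 1.86 ± 0.22 (edgeR, adjusted p = 4.88e-07) and 1.27 ± 0.27 (edgeR, adjusted p = 0.000678). Both exceeded the mean of the 3 classes but not stromal-like cells, where the means were 20.6 and 33.9 CPM. Hoxc8 was at 14.3, 12.3 and 14.3 CPM in endothelial-like cells, below every value of the large classes, with −2.24 ± 0.20 (edgeR, adjusted p = 3.59e-09). Hoxc6 had −2.03 ± 0.21 (edgeR, adjusted p = 3.64e-08) and Hoxc4 −1.81 ± 0.18 (edgeR, adjusted p = 1.91e-08). Without called doublets, Hoxb7 was at 34.4 ± 8.47 CPM and Hoxc8 at 8.23 ± 0.440 CPM. Under RLE and DESeq2 scaling, the share of calls that were higher moved over all genes from 41.5% to 51.8% and 54.9%, while the counts of members were 12 higher and 8 lower under RLE and 13 and 8 under DESeq2. Without lot 26 the calls for Hoxb3, Hoxc9, Hoxd8 and Hoxd10 were lost, and without lot 30 that for Hoxd8.

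Germ-like cells, the kind that the SSEA1 antibody was meant to remove, were low for most Hox genes. Against the mean of the 3 large classes, 27 of 30 members were lower, 1 was higher (Hoxa13) and 2 were not past the threshold (Hoxa11 and Hoxb8). Hoxa13 passed the filter on low counts through the germ-like sums, so its call was set by that filter and is given as a description. Over all genes tested, 40.2% were called lower, 36.6% higher and 76.8% in either direction. Hoxc8 was at 8.71, 4.53 and 6.25 CPM in germ-like cells, below every lot of the large classes (−3.26 ± 0.17, edgeR, adjusted p = 4.49e-14). Hoxc6 had −3.04 ± 0.17 (edgeR, adjusted p = 1.46e-13) and Hoxc4 −2.99 ± 0.14 (edgeR, adjusted p = 4.76e-15). The germ-like sum lay within the red-blood-cell-like range over all lots, but in lots 26 and 29 it was above the red-blood-cell-like sum. Of the germ-like cells 13.5% were called doublets, and the part of free RNA and doublets in these levels was not tested. Without called doublets, Hoxc8 fell to 2.66 ± 2.13 CPM and the Hox sum to 37.7 ± 14.9 CPM. The calls for Hoxa3, Hoxa6, Hoxa10 and Hoxb9 were lost without lot 26, that for Hoxa3 without lot 29 and those for Hoxa6 and Hoxb9 without lot 30.

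Genes found mainly in germ-like cells lay at the ends of the clusters and are named here after their values were seen. Hoxa13, the most posterior HoxA gene, whose product patterns digits and the urogenital opening, was at 1.497, 1.75 and 3.53 CPM in germ-like cells of lots 26, 29 and 30. Of its 78 UMIs in all kept cells, 74 (94.9%) lay in 67 germ-like cells, 4 of them called doublets, with 0 in pre-granulosa-like, 1 in epithelial-like and 3 in stromal-like cells. Pooled over lots, the germ-like level was at least 91.6-fold higher than in pre-granulosa-like cells, taking 3 counts over the class as the floor. Without called doublets it was 2.63 ± 1.47 CPM. Of the UMIs of Hoxd1, 34 of 46 lay in germ-like cells, of Hoxc13 25 of 29 and of Hoxb13 17 of 20, in every lot. These 3 genes were too low for the test. Hoxd1 and Hoxb13 were at least 42.1-fold and 21.1-fold higher than in pre-granulosa-like cells by the same floor. In all, 138 of 1472 germ-like cells held a UMI of any of the 4, and 3 cells of more than 1 of them.

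The classes were themselves uneven, and the values that follow are descriptions of clusters made from the same cells, with no test. The 4 stromal-like clusters (4, 5, 13 and 11) held 52.9, 108, 132 and 276 CPM of HoxA and 183, 195, 109 and 101 CPM of HoxD. Cluster 4 was led by genes that include Sparcl1 and Tcf21, and cluster 11 by genes that include the matrix genes Lum and Dcn. HoxA was at 296, 310 and 230 CPM in cluster 11 and at 51.3, 48.9 and 56.3 CPM in cluster 4 for lots 26, 29 and 30, and HoxD at 102, 111 and 94.0 against 184, 172 and 186 CPM. Neither pair of ranges overlapped. Hoxa5 was at 74.5 CPM in cluster 11 and 13.2 in cluster 4, Hoxc8 at 193 and 35.5, Hoxb4 at 30.1 and 3.14, and Hoxd9 at 49.3 and 110. Cluster 11 had the highest Hox sum of the named clusters, 947 CPM. Of the cells of cluster 13, led by Dkk2 and Foxd1, 43.3% were called doublets, and without them its HoxA was at 219 CPM and its HoxC at 497 CPM in place of 335 CPM. In cluster 5, 93.5% of cells held a UMI of the proliferation gene Mki67.

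The epithelial-like clusters 7, 10, 6 and 9 had Hox sums of 455, 552, 565 and 787 CPM. HoxD made up 55.4%, 49.65%, 51.4% and 51.0% of their Hox UMIs, and HoxA 2.42%, 5.66%, 6.61% and 10.5%. Cluster 9, led by Tm4sf5, Pappa2 and the keratin gene Krt19, was the highest of the 4 in each Hox gene cluster. It also passed the marker score for stromal cells (1.77, against 2.97 for epithelial cells), with the stromal gene Hand2 among its leading genes, as cluster 6 did (1.04 against 2.29). Hoxd11 was at 73.1, 47.2 and 55.6 CPM in cluster 9 and at 9.40, 8.99 and 9.51 CPM in cluster 7, with no overlap. Hoxa5 was at 17.7 CPM in cluster 9 and at 1.25 CPM in cluster 7, and Hoxd9 at 221 and 164 CPM. The HoxA sum of cluster 9, 82.4 CPM, was above the 52.9 CPM of stromal-like cluster 4 but below the other stromal-like clusters. Hoxa5 was also higher in cluster 9 than in cluster 4. The HoxA order of the 2 classes was thus reversed between these clusters. In clusters 6 and 10, 92.0% and 74.5% of cells held a UMI of Mki67.

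Among the 4 pre-granulosa-like clusters (0 to 3), the Hox sum was 162, 218, 114 and 162 CPM. Cluster 1, led by genes that include Cst12, Sohlh1 and Bmp2, was highest and cluster 2, led by Sprr2d, was lowest. Hoxd9 was at 22.6, 44.1, 11.8 and 28.7 CPM and Hoxc9 at 10.4, 22.5, 11.1 and 14.1 CPM in clusters 0 to 3. HoxA stayed between 2.63 and 5.02 CPM in all 4. The lots filled these clusters unequally: 2586 of the 2887 cells of cluster 3 came from lot 30.

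**Figure D4:**
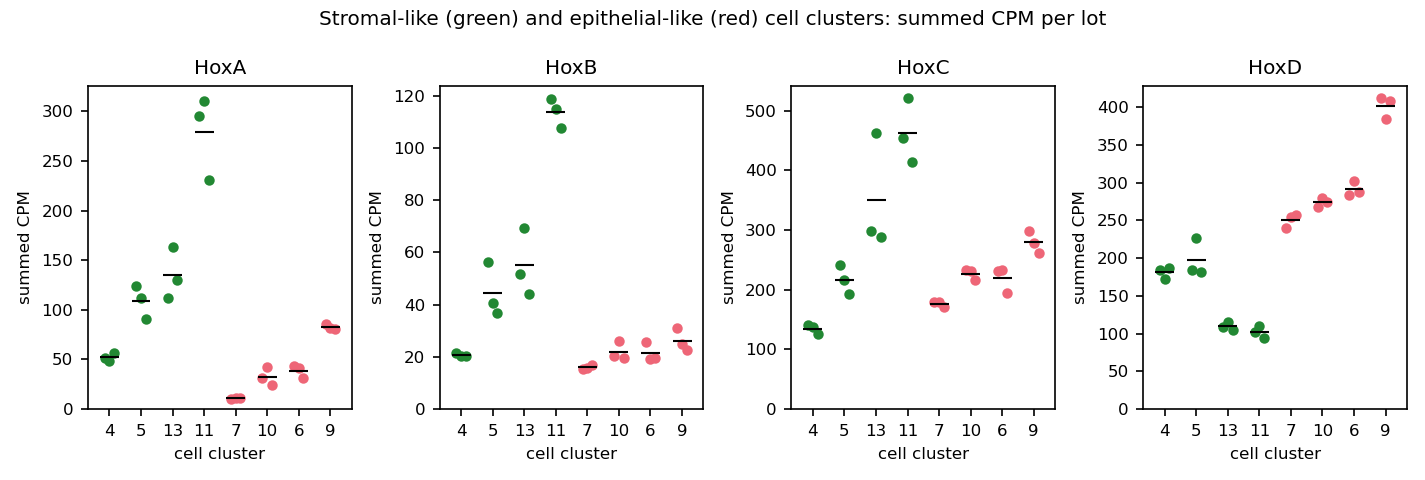
Summed CPM of each Hox gene cluster in the stromal-like (green) and epithelial-like (red) cell clusters, with a point per lot and a line at the mean. Stromal-like clusters are spread widely in HoxA, from 52.9 CPM in cluster 4 to 276 CPM in cluster 11 (lots pooled), while epithelial-like clusters lie together in HoxB and apart from the stromal-like ones in HoxD.

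A small cluster of 146 cells that received no name was rich in Hox transcripts. It was divided after the data were seen into 4 groups of 43, 41, 38 and 24 cells, called here by leading genes, and their pooled values carry exact Poisson 95% intervals, which cover counting error only. The pooled HoxB sum was 390, 482, 326 and 357 CPM in these groups, in that order, against 108 CPM in endothelial-like cells. The group led by Lhx1, Cldn7 and Cdh16, genes of the nephric epithelium, had a Hox sum of 696 CPM. HoxB gave 56.0% of its Hox UMIs and paralogs 9 to 13 only 8.96%. Hoxb4 was at 78.3 CPM (58.8 to 102), and Hoxa11 and Hoxd11 had no UMI (upper bounds of 5.35 CPM). The group led by Lhx1, Uncx and Pax2 had a sum of 1111 CPM, with paralogs 9 to 13 at 39.1% of its Hox UMIs, Hoxd11 at 76.2 CPM (56.6 to 100) and Hoxa11 at 53.3 CPM (37.2 to 74.2). Of its 41 cells 27 came from lot 29, and Hoxa11 and Hoxd11 were at 85.3 and 122 CPM in that lot and at 0 in the 9 and 5 cells of the other lots.

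The group led by Chga, Chgb, Dbh and Th, genes of catecholamine-making cells, had a sum of 785 CPM. Its Hoxb8 was at 98.2 CPM (71.0 to 132) and Hoxc9 at 84.5 CPM (59.5 to 116), with 1 UMI of Hoxd11 and none of Hoxa11. The group led by Tlx2 and Sox10, genes of neural crest derivatives, had a sum of 997 CPM, with Hoxb9 at 117 CPM (83.6 to 159) and Hoxd11 at 70.2 CPM (45.0 to 104). Uncx was also among its leading genes, and Tlx2 was among those of the group led by Lhx1, Uncx and Pax2. No marker of the neural crest list was seen in 60% or more of its cells, so its identity is uncertain. Its Hoxd11 was at 0, 163 and 23.8 CPM in lots 26, 29 and 30, and Hoxa11 at 0, 88.9 and 0 CPM, so that in this group too lot 29 gave most of the posterior signal.

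**Figure D5:**
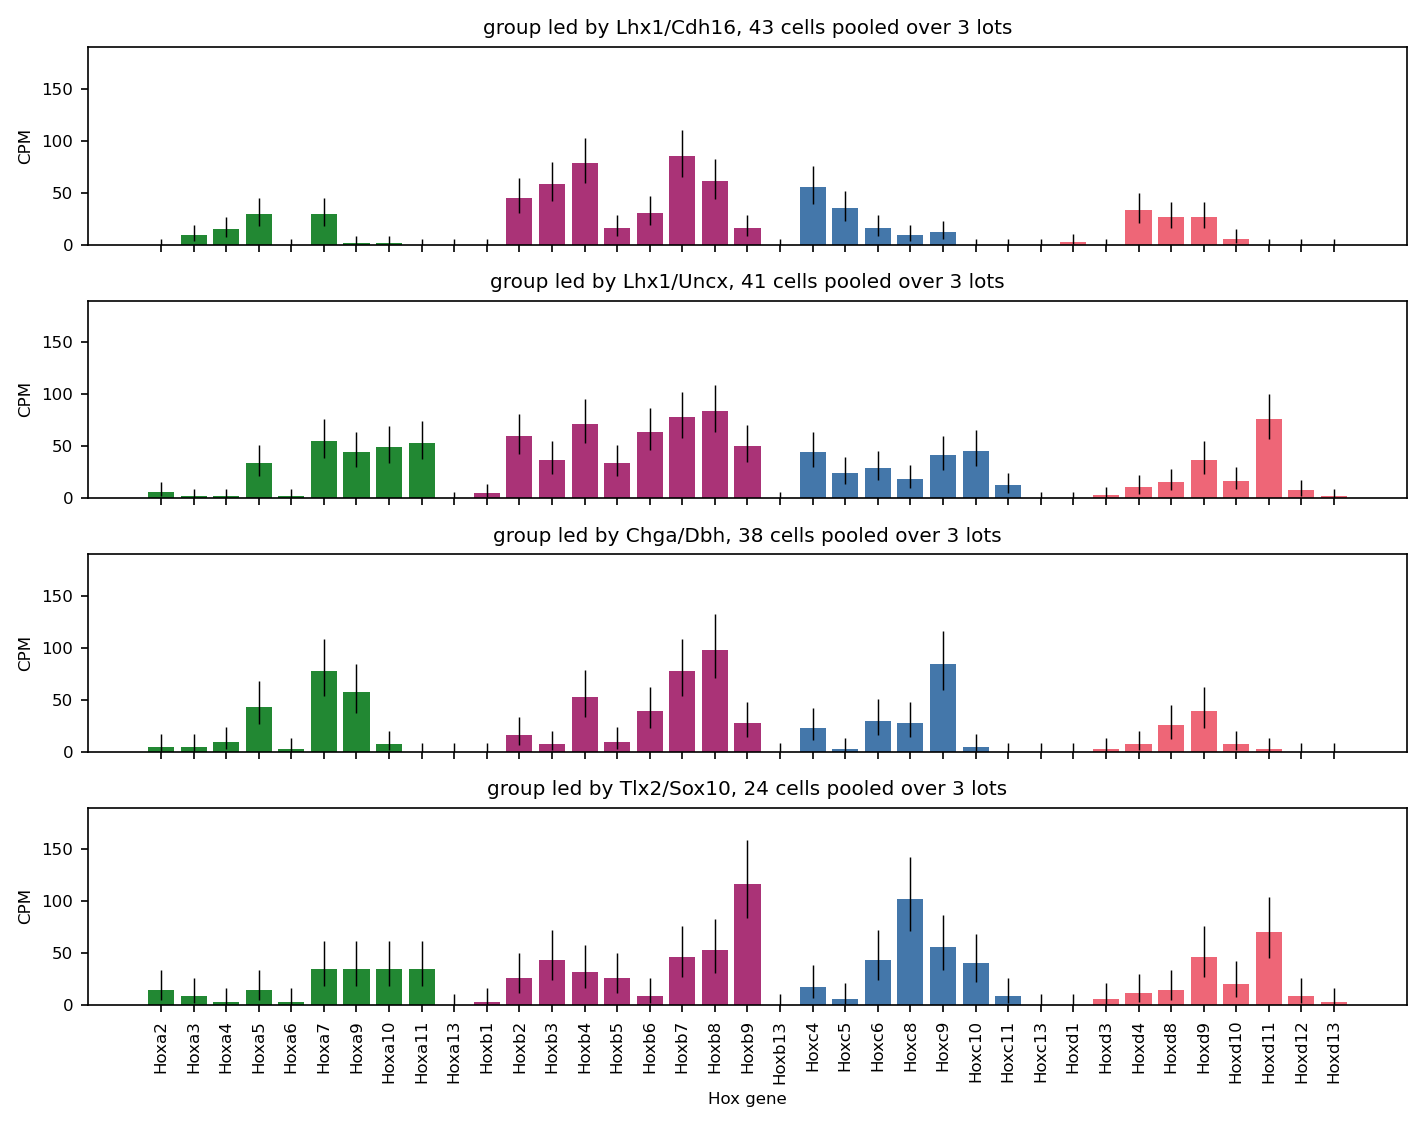
Pooled CPM of Hox genes in the 4 small groups, with exact Poisson 95% intervals (bars), coloured by gene cluster. HoxB genes lead in all 4 groups, and Hoxd11 is present in the groups led by Lhx1/Uncx and by Tlx2/Sox10 (76.2 and 70.2 CPM) but without a UMI, or with 1, in the other groups.

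Across 20 cell clusters, the 26 members with enough UMIs could be compared by the shape of their profiles. Neighbours in a gene cluster had a median Pearson r of 0.937 over 21 pairs, members of 1 gene cluster that were not neighbours 0.855 over 53 pairs, paralogs of the same number in different clusters 0.638 over 25 pairs and other pairs 0.599 over 226 pairs. The most alike pair was Hoxd9 and Hoxd10, at 0.968. These correlations are descriptions across cell clusters that share libraries and depth, and cell clusters are not independent replicates.

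Partners and regulators of Hox proteins were taken from a list of 51 genes. Meis2, a TALE cofactor of Hox proteins, was at 15.2, 15.7 and 17.8 CPM in pre-granulosa-like, 164, 151 and 134 CPM in epithelial-like and 267, 266 and 275 CPM in stromal-like cells, without overlap between any pair. Against the pre-granulosa-like class its log2 fold change was 3.91 ± 0.24 in the stromal-like class (edgeR, adjusted p = 1.81e-12) and 3.14 ± 0.23 in the epithelial-like class (edgeR, adjusted p = 9.78e-11). Meis1 was at 34.1, 30.5 and 32.7, then 65.7, 58.8 and 59.6, then 139, 132 and 136 CPM in the same order. Of 9 TALE genes, 5 were higher and 1 lower in the stromal-like than in the pre-granulosa-like class (all genes 23.2% and 26.5%). The epithelial-like class had 3 higher and 3 lower by the same measure (all genes 20.2% and 24.8%). Stromal-like against epithelial-like cells gave 7 higher and 1 lower (all genes 17% and 14.7%). Pbx3 and Pbx2, PBX partners of Hox proteins, were lower in epithelial-like than in pre-granulosa-like cells (−1.01 ± 0.16 and −0.94 ± 0.11). In germ-like cells 8 of 9 TALE genes were lower and 1 higher (all genes 40.2% and 36.6%), and in endothelial-like cells 7 were lower and 1 higher (all genes 24.3% and 17.2%).

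Of 16 Polycomb genes, 4 were higher and 3 lower in stromal-like than in pre-granulosa-like cells, close to the 23.2% and 26.5% of all genes. In the epithelial-like class 5 were higher and 2 lower, where all genes gave 20.2% and 24.8%. Ezh2, the H3K27 methyltransferase, was higher in both, by 1.13 ± 0.14 and 1.34 ± 0.14. In germ-like cells 11 of the 16 were higher and 3 lower, against 36.6% and 40.2% of all genes. Of 6 trithorax and H3K27 demethylase genes, 1 was lower in each of stromal-like and epithelial-like against pre-granulosa-like cells (26.5% and 24.8% of all genes were lower). Of 6 caudal and axial factors 3 could be tested. Cdx2, a caudal gene that activates Hox genes in the tail bud, reached 24.8 ± 0.348 CPM in germ-like cells, with means no higher than 0.123 CPM in the large classes. It too passed the filter through the class where it is high, so no test is given. Of 13 tested genes that flank the Hox clusters, 9 were higher and 2 lower in germ-like cells, where 36.6% of all genes were higher and 76.8% were called in either direction. Among the 9 were Skap2, beside HoxA, at 2.39 ± 0.11 (47.8 ± 4.39 CPM), and Calcoco2, near HoxB, at 76.8 ± 19.6 CPM. Skap2 was also higher in endothelial-like cells (1.52 ± 0.17), and Lnp, beside HoxD, in stromal-like against pre-granulosa-like cells (1.54 ± 0.13).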

How the data were processed

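The authors identified cell barcodes with UMI-tools, aligned reads to GRCm38 with STAR 2.7, counted uniquely mapped reads per gene with featureCounts 2.0.1 and deposited UMI counts per gene and cell without normalization. The annotation release and strand setting are not given in the sources used here. Each of the 3 lots is 1 sample. Kept barcodes had 200 to 9000 genes and at most 10% mitochondrial UMIs (28971 of 29103, with 125898949, 87474664 and 141398825 UMIs per lot). Pairs of lots shared 20, 19 and 30 barcodes. Cells were clustered in Seurat 5.3.0 (2000 variable genes without Hox genes, 50 components, resolution 0.8), and doublets were called with Scrublet in scanpy 1.11.5 and kept in the main result.

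Counts were summed per class and lot for 7 classes (21 sums) and compared by the quasi-likelihood test of edgeR 4.0.16, after filterByExpr and TMM scaling, with Benjamini-Hochberg adjustment. p-values measure the spread between 3 pools. On simulated data for stromal-like against pre-granulosa-like cells (14264 genes, 200 changed), the test recovered 96 of 100 genes changed 2-fold and 100 of 100 changed 4-fold, and 5.77% of calls were false. Sums of 1 lot come from 1 library, so the lots pair by construction. The 63 pairs of sums from 1 lot had deviations with a median correlation of 0.324, and 46 pairs exceeded 0.1. Named members are at most 3 per comparison and direction with the largest change past the threshold at 20 CPM or more in a compared class, and 5 cofactors likewise, with values per lot for members that reach this level in any class. Alternatives covered scaling, filters, the test, the clustering, doublets, Y-linked UMIs, the lot as a block and each lot left out. Some results are not reported here. The members and lists were chosen with earlier results of these data known. Gene positions come from GENCODE (GRCm38), and upstream sequences from RefSeq (GRCm38.p6).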

Additional observations from a re-analysis of the deposited data

How the results depend on the processing

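The counts of Hox genes called in each comparison stayed within 1.5 times the main count under every alternative run, except for genes called higher in germ-like cells. That count, 1 in the main result, was 6 without the low-count filter, 5 with DESeq2, 4 with only the compared classes in the model and 3 with a stricter cell filter, and between 1 and 2 with a lot left out, Hoxd1 joining without lot 29. The cause was not tested, other than that more Hox genes enter the test without the filter. The members and cofactors picked by the naming rule above, with Hoxa13 added, kept their direction and their side of the threshold in all 799 values recomputed. Hoxa13 and Cdx2, which passed the filter through germ-like cells, are among them. Calls outside that rule were lost in some settings, such as those given above for Hoxd3, Hoxd10, Hoxb7 and Hoxc4. The stromal-like Hox sum was 697 CPM at resolution 0.4, where the class held 3401 cells, and the germ-like sum was 37.7 CPM without called doublets, whose removal leaves 1274 cells. With the lot as a replicate block, Hoxa13 was also called in stromal-like against pre-granulosa-like cells (29 higher), Hoxb8 and Hoxb9 in epithelial-like cells (29 higher), Hoxc5 as lower in stromal-like against epithelial-like cells (7 lower) and Hoxd3 as lower in endothelial-like cells (9 lower), and it changed no other call of a Hox gene. In these comparisons, in that order, calls over all 14435 genes rose from 7167 to 9401, 6500 to 8940, 4573 to 7313 and 5994 to 7066. RLE scaling moved the median over all genes by 0.13 in the germ-like and 0.11 in the endothelial-like comparison (log2), and DESeq2 by 0.16 in both. Leaving out clusters 11, 13 or the cycling clusters, recomputing the class sums under each setting and dividing the small cluster were chosen after seeing the data. Small classes limit the depth: 349 endothelial-like and 78 red-blood-cell-like cells.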

Other observations

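Clusters 12, 14 and 15 received no name and belonged to no comparison. Cluster 15, led by the hormone gene Insl3 and the steroid enzyme genes Cyp17a1, Cyp11a1 and Hsd3b1, held 426 cells (128, 266 and 32 per lot), of which 65.7% had a UMI of a Y-linked gene. It had a Hox sum of 470 CPM, of which HoxD gave 58.2%. Hoxd9 was at 152, 161 and 262 CPM in lots 26, 29 and 30 and Hoxd10 at 44.4 CPM over all lots, while HoxA was at 26.5 CPM. Cluster 12, led by Lypd1, Pax8 and Aldh1a3, had a sum of 173 CPM, and HoxC gave 56.6% of it. Cluster 14, of cells with few UMIs, had 418 CPM.

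Sertoli-like cells, the supporting cells of the testis and the male counterpart of pre-granulosa cells, had a Hox sum of 131, 107 and 148 CPM against 176, 169 and 159 CPM in pre-granulosa-like cells of the same lots, from 89, 282 and 16 cells. Hoxc8 was at 7.25, 10.8 and 7.39 CPM in Sertoli-like cells, below its 36.9 ± 2.23 CPM in pre-granulosa-like cells. Hoxa7 was at 6.16 ± 3.16 CPM in Sertoli-like and 1.49 ± 0.231 CPM in pre-granulosa-like cells, while HoxB was at 33.5 ± 18.9 against 9.18 ± 1.37 CPM. Hoxb9 was at 23.9, 9.72 and 48.0 CPM in Sertoli-like cells against 3.05 ± 1.30 CPM, with no overlap. Of the Sertoli-like cells, 12.1% were called doublets. The difference between these classes was not tested.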
